A study of Mus musculus with 15 samples.

Results

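The interferon response and MHC class I genes are 36 mouse genes chosen by function, and 30 of them could be read singly among the 19938 genes on the array. They comprise the interferon receptors, the factors that carry their signal to the nucleus, 2 feedback inhibitors, 2 RNA sensors, antiviral effectors, guanylate-binding proteins, the immunoproteasome and the peptide-loading and class I chains. Each gene was read from the transcript cluster (a pool of array probes for 1 transcript) annotated to that gene alone, and from the brightest one where there were several. Isg15, Gbp2, H2-K1, H2-D1 and H2-T23 lay only on clusters that carry several gene symbols, and Ifi44 was not analysed here.

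The arrays were Affymetrix Mouse Gene 1.0 ST arrays of RNA from sorted pancreatic islet cells, 15 in all, from mice of mixed B6 and BALB/C background. Cells labelled Pdx1-deficient (PKO), 5 arrays, had been collected 5 days after tamoxifen, and their cell subtype label is reprogrammed cells. The 5 arrays of control alpha cells are labelled RIP-CreER with 1 floxed Pdx1 allele and RosaYFP, and the 5 of control beta cells glucagon-Cre with RosaYFP. Both controls were YFP-positive cells of mice 2 months old. Normally RIP, the insulin promoter, is active in beta cells and the glucagon promoter in alpha cells, so the 2 genotype labels stand crosswise to the titles, and groups were taken from the titles. The deleted exon, the age and sorting of the Pdx1-deficient cells, any tamoxifen given to controls, the H-2 haplotype of each sample and whether arrays of a group came from separate animals are not stated by the labels. P-values therefore measure the spread between these arrays, which may be technical.

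All values are deposited signals, read as log2 because they run from 2.11 to 13.45, and array medians were 5.88 to 6.05. Pdx1 read 9.12, 7.83, 7.68, 6.53 and 7.59 in Pdx1-deficient replicates 1 to 5, 7.27 to 8.21 in alpha cells and 8.85 to 9.33 in beta cells. The array labelled Pdx1-deficient replicate 1 thus lay inside the beta range and went against its label. Its mean over 9 beta-cell markers, 10.36, was also inside the beta range of 10.14 to 10.43. That over 8 alpha-cell markers, 8.17, was instead above the beta range of 7.22 to 7.61 and the highest of its group. Its glucagon signal, 12.79, was above the beta range too. The array labelled alpha replicate 2 had the lowest mean of 8 alpha-cell markers among alpha arrays, 7.95, where the other 4 reached 8.90 to 9.07 and beta arrays 7.22 to 7.61. Ins2, insulin, overlapped in all groups, at 11.90 to 12.12 in Pdx1-deficient, 11.86 to 12.09 in alpha and 11.77 to 11.98 in beta cells. Gcg, glucagon, read 12.35 to 12.79 in Pdx1-deficient, 12.49 to 12.87 in alpha and 12.15 to 12.51 in beta cells, and alpha replicate 2, at 12.49, was the 1 alpha array inside the beta range. Leukocyte markers, genes of immune cells that a sort can carry along, had a mean over 16 genes of 5.06 to 5.35 in Pdx1-deficient cells, 5.15 to 5.47 in alpha cells and 5.03 to 5.29 in beta cells. Of these, 0 of 16 passed the test in any comparison. Ptprc (CD45), which defines leukocytes, lay below the 25th percentile of its array on 14 of 15 arrays. Of the 16, only Adgre1 and Lyz2 lay below it on every array. In both Pdx1-deficient and alpha cells, 14 of the 16 were higher than in beta cells, beside 12123 and 11612 of all 19938 genes. The median differences were 0.13 and 0.14, beside 0.06 and 0.04 over all genes. Acinar markers averaged 11.42 on alpha replicate 5 and 5.98 to 7.50 on the other 14 arrays. Stromal markers, 10 genes of fibroblasts and pericytes, averaged 5.51 to 5.74 in Pdx1-deficient, 5.32 to 6.01 in alpha and 5.24 to 5.48 in beta arrays, so every Pdx1-deficient array lay above every beta array. Of these 10, Rgs5 was called higher in alpha than in beta cells (difference 1.07, limma adjusted p = 0.0365), and 0 were called in Pdx1-deficient against beta cells. The part of these markers in the results was not tested.

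Interferons bind paired receptor chains at the cell surface. The receptors act through Janus kinases on STAT proteins. Type I interferon acts through a complex that contains STAT2 and IRF9 and binds the interferon-stimulated response element (ISRE), while genes that respond to interferon gamma can carry the gamma-activated site (GAS). Among the genes that interferons switch on are antiviral proteins and the machinery that cuts proteins, carries the peptides into the endoplasmic reticulum and loads them on MHC class I for display to CD8 T cells. In islets, class I display on beta cells is known for its part in autoimmune diabetes.

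ISRE letters stood near the starts of many of these genes. Windows of 250 bases before to 50 after the annotated start were searched in RefSeq (GRCm38.p6) for GAAANNGAAA on both strands. An entry existed for 27 of the 30 measured genes, all but Nlrc5, Usp18 and Tap2, and 13 of the 27 (48.1%) held a match, against 3.89% of the 15614 array genes that had an entry. The 13 were Stat2, Socs1, Ifih1, Ddx58, Ifit1, Ifit3, Rsad2, Oas1a, Eif2ak2, Cxcl10, Gbp3, Gbp7 and B2m. GAS letters, TTCNNNGAA, which read the same on both strands, stood in 8 of 27 (29.6%), against 8.99% of these genes. The 250 bases before the start are printed for B2m, Ifit1 and Cxcl10. B2m had the largest difference of the set, and Ifit1 and Cxcl10 had every alpha array above every beta array in the deposited signals. Capitals mark the ISRE matches. B2m lies at chr2:122147437-122147686 (plus strand), with the match 139 to 130 bases before the start. Ifit1 lies at chr19:34640639-34640888 (plus strand), with matches at 104 to 95 and 85 to 76 bases. Cxcl10 lies at chr5:92348890-92349139 (minus strand), with a match at 213 to 204 bases. A match is a run of letters and was not tested as a binding site.
B2m: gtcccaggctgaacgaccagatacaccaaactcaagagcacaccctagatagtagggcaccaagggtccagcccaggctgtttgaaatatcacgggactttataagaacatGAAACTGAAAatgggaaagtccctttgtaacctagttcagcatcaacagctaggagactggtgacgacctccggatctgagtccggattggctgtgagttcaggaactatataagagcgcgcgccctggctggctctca
Ifit1: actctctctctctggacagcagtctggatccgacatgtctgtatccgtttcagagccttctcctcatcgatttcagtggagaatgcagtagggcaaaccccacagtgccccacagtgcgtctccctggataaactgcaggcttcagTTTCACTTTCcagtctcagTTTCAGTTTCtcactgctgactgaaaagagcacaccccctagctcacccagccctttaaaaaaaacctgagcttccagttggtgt
Cxcl10: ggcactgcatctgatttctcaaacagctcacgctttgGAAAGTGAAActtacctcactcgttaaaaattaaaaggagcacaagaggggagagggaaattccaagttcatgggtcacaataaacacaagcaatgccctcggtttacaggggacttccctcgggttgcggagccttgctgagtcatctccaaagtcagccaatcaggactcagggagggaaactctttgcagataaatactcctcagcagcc

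No member passed the test in any of the 3 comparisons, and the largest differences between Pdx1-deficient and beta cells were in B2m and Usp18, both lower on average in Pdx1-deficient cells. Limma, with p-values adjusted over all 19938 genes and a threshold of 0.05, called 0 of 30 members in Pdx1-deficient against beta cells, where 1.09% of all genes were called (32 higher and 185 lower, 14.7% of them higher, or 4.23% when array medians were subtracted). It called 0 of 30 in alpha against beta cells, where 4.04% of genes were called (178 higher and 628 lower, 22.1% higher, or 10.4% when array medians were subtracted). It called 0 of 30 in Pdx1-deficient against alpha cells, where 0% were. At an unadjusted p under 0.05 the members numbered 6, 4 and 3 in these comparisons, beside 21.8%, 20.7% and 6% of all genes. The median member difference was 0.02 between Pdx1-deficient and beta cells, 0.08 between alpha and beta cells and 0.03 between Pdx1-deficient and alpha cells, on the log2 scale, where the medians over all genes were 0.06, 0.04 and 0.02. Members with a positive difference numbered 19, 17 and 16 of 30. Complete separation of both sets of arrays was seen for 0 members in Pdx1-deficient against beta cells (5.96% of all genes), 2 in alpha against beta cells (6.34%) and 0 in Pdx1-deficient against alpha cells (0.637%). The first and second comparisons share the 5 beta arrays. Leaving out single arrays moved the number of all genes called between 0 and 548 in the first and between 328 and 1430 in the second. In bulk samples, fewer cells of a type and less RNA per cell cannot be told apart.

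**Figure D1:**
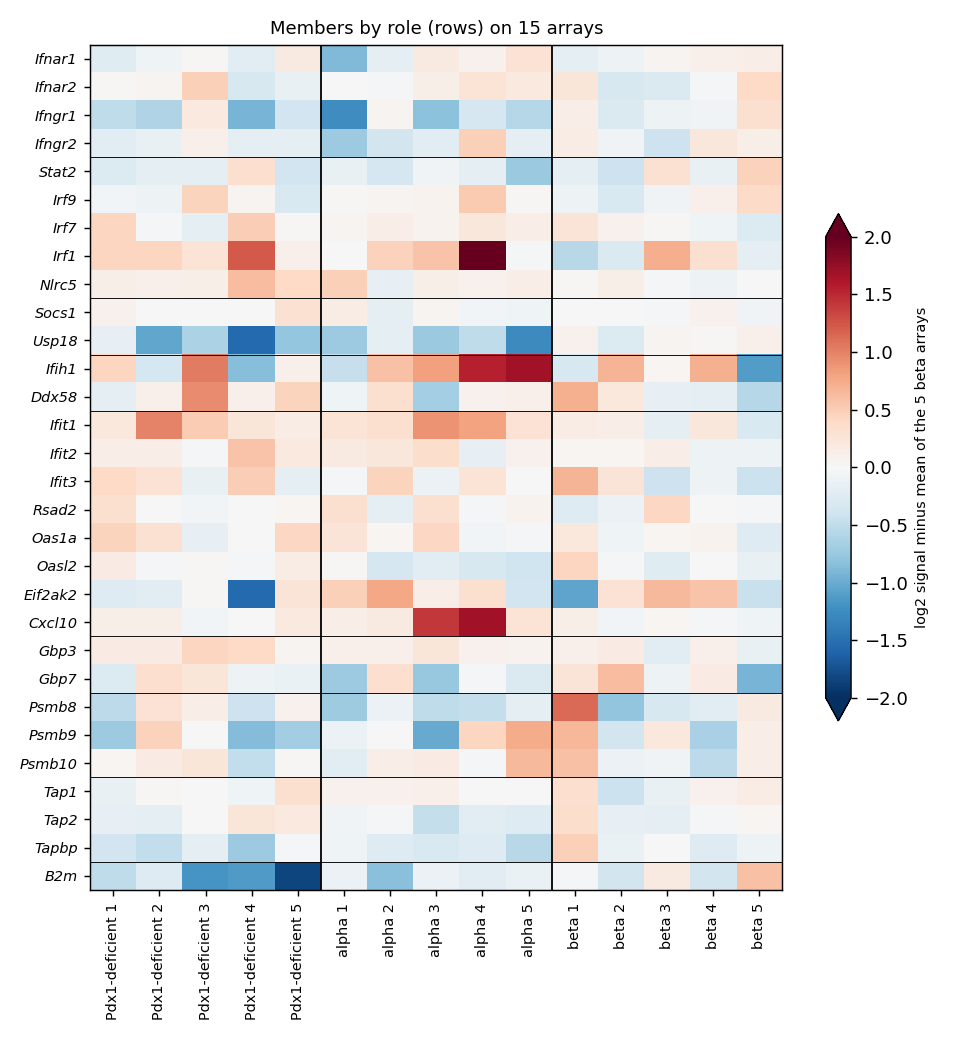
Log2 signal of each of the 30 measured genes (rows, grouped by role) on each of the 15 arrays (columns, by group), minus that gene's mean over the 5 beta arrays; the colour scale ends at -2 and 2, and Irf1 on alpha replicate 4 lies beyond it. Colours differ from array to array within each group, and Irf1 on alpha replicate 4, at a signal of 9.09, stands out.

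The 30 genes were not dim as a set, but a few were. Signals of 14 members lay above the array's median on all 15 arrays, and those of Ifit2, Ifit3, Irf7, Rsad2 and Gbp3 on none. Ifit2 and Gbp3 lay below the 25th percentile of the array on every array. Detection calls were not used here, so the distance of such signals from background was not tested. Members scattered between arrays of the same group. The median SD within groups was 0.30 for members and 0.21 for all genes, and 13 of 30 members (43.3%) lay above the 75th percentile of this SD over all genes. Ifih1 had the largest, 0.78, which 98.7% of genes did not reach, followed by Irf1 with 0.69 and Eif2ak2 with 0.63. The 95% intervals were wide in step with this. They reached 0.38 to either side at the median for members and 0.27 for all genes.

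The receptor chains showed no called difference. Ifnar1 and Ifnar2 form the type I interferon receptor, and they differed between Pdx1-deficient and beta cells by -0.07 and 0.02. Ifngr1 and Ifngr2 form the interferon gamma receptor, and Ifngr2 differed by -0.13. Ifngr1, its ligand-binding chain, read 7.40, 7.31, 8.11, 6.98 and 7.52 in Pdx1-deficient replicates 1 to 5, 6.68, 7.96, 7.08, 7.58 and 7.35 in alpha replicates and 8.04, 7.62, 7.81, 7.84 and 8.24 in beta replicates. In both groups 4 arrays lay under every beta array, with Pdx1-deficient replicate 3 and alpha replicate 2 inside the beta range. The difference from beta cells was -0.44 (SE 0.23) in Pdx1-deficient and -0.58 (SE 0.23) in alpha cells, with limma adjusted p = 0.263 and 0.166.

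The factors that carry the signal inward gave no called difference either. Stat2 and Irf9, both parts of the ISRE-binding complex, differed between Pdx1-deficient and beta cells by -0.13 (95% interval -0.52 to 0.26) and 0.01 (-0.31 to 0.34). Irf7, which amplifies the type I response, differed by 0.15 (-0.13 to 0.42). Nlrc5, a transactivator of class I genes, averaged 8.90 ± 0.23 in Pdx1-deficient cells, 8.76 ± 0.22 in alpha cells and 8.63 ± 0.08 in beta cells (SD, n = 5 each). The Nlrc5 difference from beta cells was 0.27 in Pdx1-deficient cells, with limma adjusted p = 0.213. Of the 19 Nlrc5 clusters, 18 were higher in Pdx1-deficient and 19 in alpha cells than in beta cells. These clusters belong to 1 gene on the same arrays, so they are not independent readings. Over all 19938 genes, 12123 and 11612 were higher in these comparisons. Irf1, a transcription factor induced by interferon gamma, read 7.17, 7.17, 7.005, 7.97 and 6.83 in Pdx1-deficient replicates 1 to 5, 6.73, 7.20, 7.31, 9.09 and 6.69 in alpha replicates and 6.18, 6.44, 7.46, 7.05 and 6.55 in beta replicates. The 3 groups overlapped, and alpha replicate 4 stood far above all other arrays. The difference from beta cells was 0.49 (SE 0.39) in Pdx1-deficient and 0.67 (SE 0.39) in alpha cells, with limma adjusted p = 0.449 and 0.348. Without alpha replicate 4 the alpha difference was 0.25.

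Of the 2 feedback inhibitors, Usp18 was the nearer to a call. Usp18 removes ISG15 from proteins and blocks the type I receptor. It read 7.26, 6.38, 6.79, 5.87 and 6.64 in Pdx1-deficient replicates 1 to 5, 6.69, 7.23, 6.67, 6.91 and 6.14 in alpha replicates and 7.50, 7.15, 7.47, 7.44 and 7.53 in beta replicates. In all, 4 Pdx1-deficient and 4 alpha arrays lay under every beta array. The exceptions were Pdx1-deficient replicate 1 and alpha replicate 2, the same arrays whose identity markers stood apart, and both lay between beta replicate 2 and the rest of the beta arrays. Usp18 averaged 6.59 ± 0.51 in Pdx1-deficient, 6.73 ± 0.40 in alpha and 7.42 ± 0.15 in beta cells (SD, n = 5 each), which is 1.78-fold lower in Pdx1-deficient and 1.61-fold lower in alpha cells if the log base is 2. The difference from beta cells was -0.83 in Pdx1-deficient cells (95% interval -1.31 to -0.35, limma adjusted p = 0.077). In alpha cells it was -0.69 (-1.17 to -0.21, limma adjusted p = 0.099). With the array labelled Pdx1-deficient replicate 1 left out, the difference of Pdx1-deficient cells was -0.998 (limma adjusted p = 0.024). With alpha replicate 2 left out, that of alpha cells was -0.81 (limma adjusted p = 0.044). Other single arrays left out brought the difference as near to 0 as -0.65 in Pdx1-deficient cells (without replicate 4, limma adjusted p = 0.166) and -0.54 in alpha cells (without replicate 5, limma adjusted p = 0.206). Without Pdx1-deficient replicates 4 and 5 together that of Pdx1-deficient cells was -0.61 (limma adjusted p = 0.423). Socs1, which inhibits Janus kinases, differed by 0.08 (-0.10 to 0.26) between Pdx1-deficient and beta cells.

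The 2 cytosolic RNA sensors scattered within every group. Ifih1 (MDA5), which detects long double-stranded RNA, read 6.88, 6.10, 7.49, 5.59 and 6.55 in Pdx1-deficient replicates 1 to 5, 5.99, 7.03, 7.27, 7.997 and 8.13 in alpha replicates and 6.13, 7.12, 6.48, 7.16 and 5.33 in beta replicates. The ranges of all 3 groups overlapped, and alpha replicates 4 and 5 were the highest of the 15 arrays. Between alpha and beta cells the difference was 0.84 (SE 0.45, limma adjusted p = 0.299), and between Pdx1-deficient and alpha cells it was -0.76 (SE 0.45, limma adjusted p = 0.926). Ddx58 (RIG-I), which detects RNA with a 5′ triphosphate, read 6.85, 7.15, 7.98, 7.15 and 7.49 in Pdx1-deficient replicates 1 to 5, 6.95, 7.36, 6.37, 7.13 and 7.15 in alpha replicates and 7.75, 7.25, 6.88, 6.87 and 6.47 in beta replicates. These groups overlapped over most of their ranges. The difference between Pdx1-deficient and alpha cells was 0.33 (95% interval -0.20 to 0.87).

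**Figure D2:**
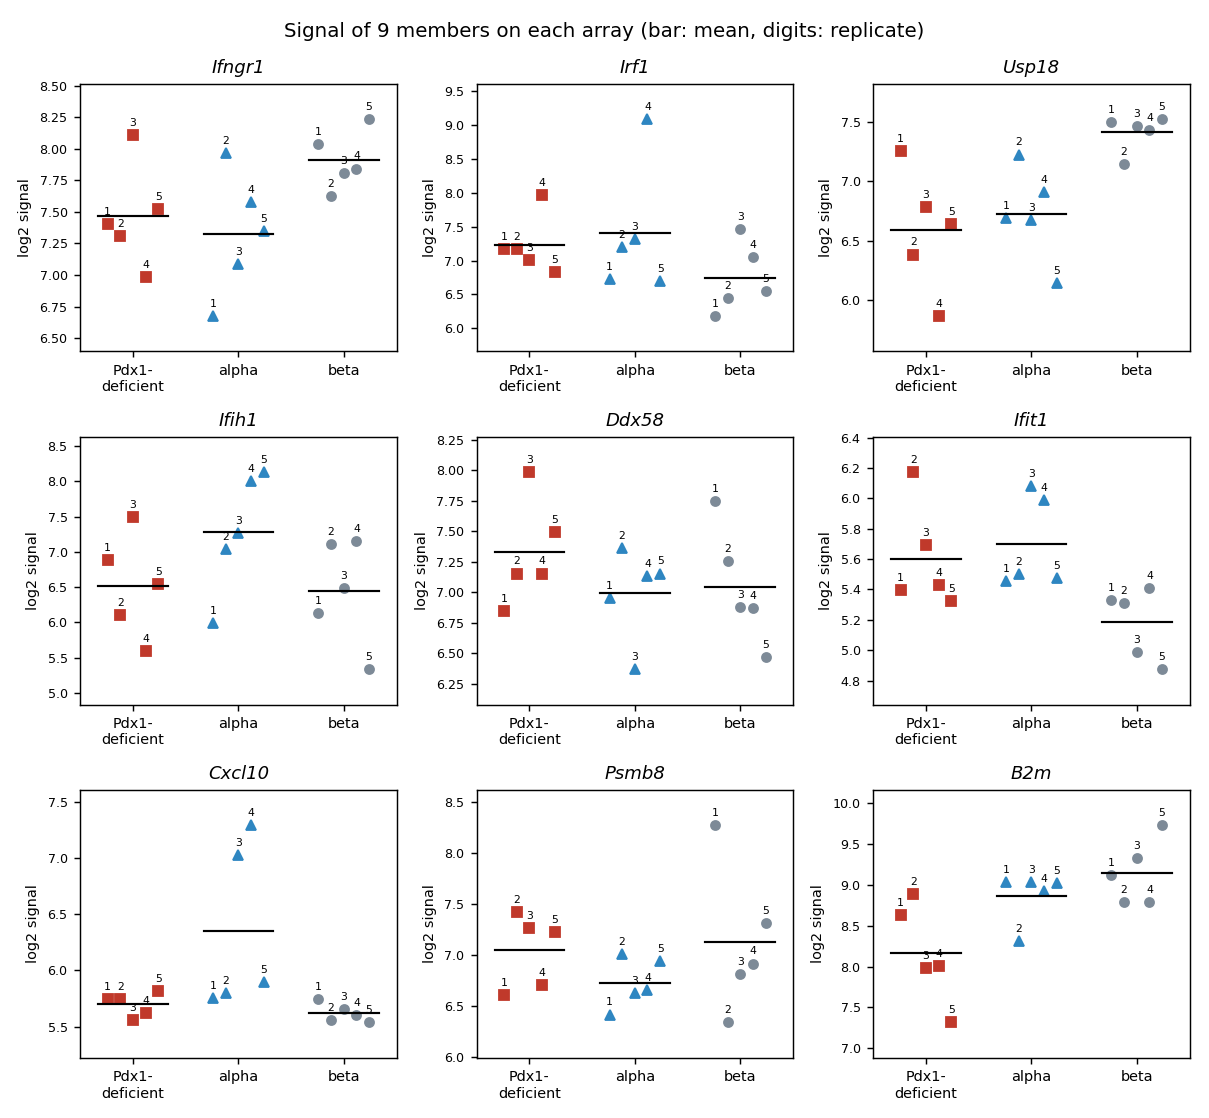
Log2 signal on each array of the 9 members named by size of difference or by groups that do not overlap; each digit is an array, by its replicate number, and each bar is the mean of the 5 arrays of a group. Usp18 and B2m are lower in most Pdx1-deficient arrays than in beta arrays, and Cxcl10 is above 7 only on alpha replicates 3 and 4.

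Among the antiviral effectors and the chemokine, Ifit1 and Cxcl10 separated alpha from beta arrays in the deposited signals, without passing the test. Ifit1, which binds viral RNA that lacks the host cap, read 5.40, 6.17, 5.69, 5.43 and 5.33 in Pdx1-deficient replicates 1 to 5, 5.45, 5.50, 6.08, 5.99 and 5.48 in alpha replicates and 5.33, 5.31, 4.99, 5.41 and 4.88 in beta replicates. Every alpha array exceeded every beta array, with alpha replicate 1 the nearest to beta replicate 4. Pdx1-deficient and beta arrays overlapped. The difference was 0.52 (95% interval 0.14 to 0.89) between alpha and beta cells and 0.42 (0.04 to 0.80) between Pdx1-deficient and beta cells, with limma adjusted p = 0.118 and 0.192. Cxcl10, a chemokine that draws T cells, read 5.74, 5.74, 5.56, 5.62 and 5.82 in Pdx1-deficient replicates 1 to 5, 5.76, 5.80, 7.03, 7.29 and 5.89 in alpha replicates and 5.74, 5.56, 5.66, 5.60 and 5.54 in beta replicates. Alpha replicates 3 and 4 were the only arrays above 6, and the other 3 alpha arrays lay just over the highest beta array. Stromal markers averaged 6.01 and 5.65 on these 2 arrays, and 5.90, 5.32 and 5.75 on alpha replicates 1, 2 and 5. The difference between alpha and beta cells was 0.74 (95% interval 0.20 to 1.28, limma adjusted p = 0.117). Between Pdx1-deficient and beta cells it was 0.08, and its sign turned (-0.02) when each array's median was subtracted. Ifit1 and Cxcl10 were the 2 members whose alpha arrays all lay above all beta arrays, and 2.29% of all genes did so. Both gaps were smaller than differences between array medians. For Ifit1 the nearest arrays, alpha replicate 1 and beta replicate 4, had medians of 6.02 and 5.91. For Cxcl10 they were alpha replicate 1 and beta replicate 1, with medians of 6.02 and 5.89. With array medians subtracted these arrays change order, so neither gene then separates the 2 groups.

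The other antiviral genes gave small differences between Pdx1-deficient and beta cells, of -0.35 for Eif2ak2 and 0.05 to 0.20 for Ifit2, Ifit3, Rsad2, Oas1a and Oasl2. Eif2ak2 (PKR), a kinase that halts translation when it binds double-stranded RNA, read 5.39 on Pdx1-deficient replicate 4 and 6.69 to 7.20 on the other 4 Pdx1-deficient arrays. Oasl2, of the oligoadenylate synthetase family that senses double-stranded RNA, averaged 5.98 ± 0.10 in Pdx1-deficient, 5.68 ± 0.16 in alpha and 5.93 ± 0.26 in beta cells (SD, n = 5 each). Its difference between Pdx1-deficient and alpha cells was 0.30 (95% interval 0.05 to 0.55, limma adjusted p = 0.748). Gbp3 and Gbp7 are GTPases that attack intracellular pathogens. They differed between Pdx1-deficient and beta cells by 0.24 and 0.01, with limma adjusted p = 0.174 for Gbp3. Ifit, Oas and Gbp genes have close paralogs, and how far array probes are shared between them was not tested.

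The immunoproteasome replaces the catalytic subunits of the standard proteasome after interferon and changes which peptides are cut. Psmb8 (in place of Psmb5) read 6.61, 7.42, 7.26, 6.71 and 7.22 in Pdx1-deficient replicates 1 to 5, 6.42, 7.01, 6.63, 6.66 and 6.94 in alpha replicates and 8.27, 6.34, 6.81, 6.92 and 7.31 in beta replicates. Groups overlapped, and beta replicate 1 was the highest of all arrays. The Psmb8 difference was -0.09 between Pdx1-deficient and beta cells and -0.40 between alpha and beta cells, against 0.20 and -0.12 without beta replicate 1. Psmb9 (in place of Psmb6) read 7.62, 8.82, 8.33, 7.48 and 7.66 in Pdx1-deficient replicates 1 to 5, 8.24, 8.34, 7.34, 8.78 and 9.09 in alpha replicates and 9.02, 7.98, 8.57, 7.70 and 8.48 in beta replicates. Psmb9 ranges overlapped, and its difference between Pdx1-deficient and beta cells was -0.37 (95% interval -1.08 to 0.35). Psmb10 (in place of Psmb7) read 6.97, 7.08, 7.17, 6.43 and 6.94 in Pdx1-deficient replicates 1 to 5, 6.69, 7.05, 7.08, 6.89 and 7.56 in alpha replicates and 7.51, 6.80, 6.84, 6.39 and 7.05 in beta replicates. Psmb10 overlapped too, with a difference between Pdx1-deficient and beta cells of -0.00 (-0.43 to 0.43).

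The standard subunits were set beside them. Psmb5, Psmb6 and Psmb7 differed between Pdx1-deficient and beta cells by -0.48, -0.98 and -0.56, and 0 of 3 passed (lowest limma adjusted p = 0.121, for Psmb6). Between alpha and beta cells they differed by -0.73, -0.35 and -0.58, and again 0 of 3 passed. Psmb6 read 9.43, 9.72, 9.60, 7.96 and 8.23 in Pdx1-deficient replicates 1 to 5, 10.0015, 9.66, 9.32, 9.43 and 9.67 in alpha replicates and 10.36, 9.39, 9.66, 10.07 and 10.37 in beta replicates. Pdx1-deficient replicates 4 and 5 were the 2 lowest of the 15 arrays. They were also the lowest for Psmb7, at 8.47 and 8.39, where the other 3 Pdx1-deficient arrays read 9.48 to 9.70. These 2 arrays had the highest medians of the series, 6.03 and 6.05. The part of that in the result was not tested.

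**Figure D3:**
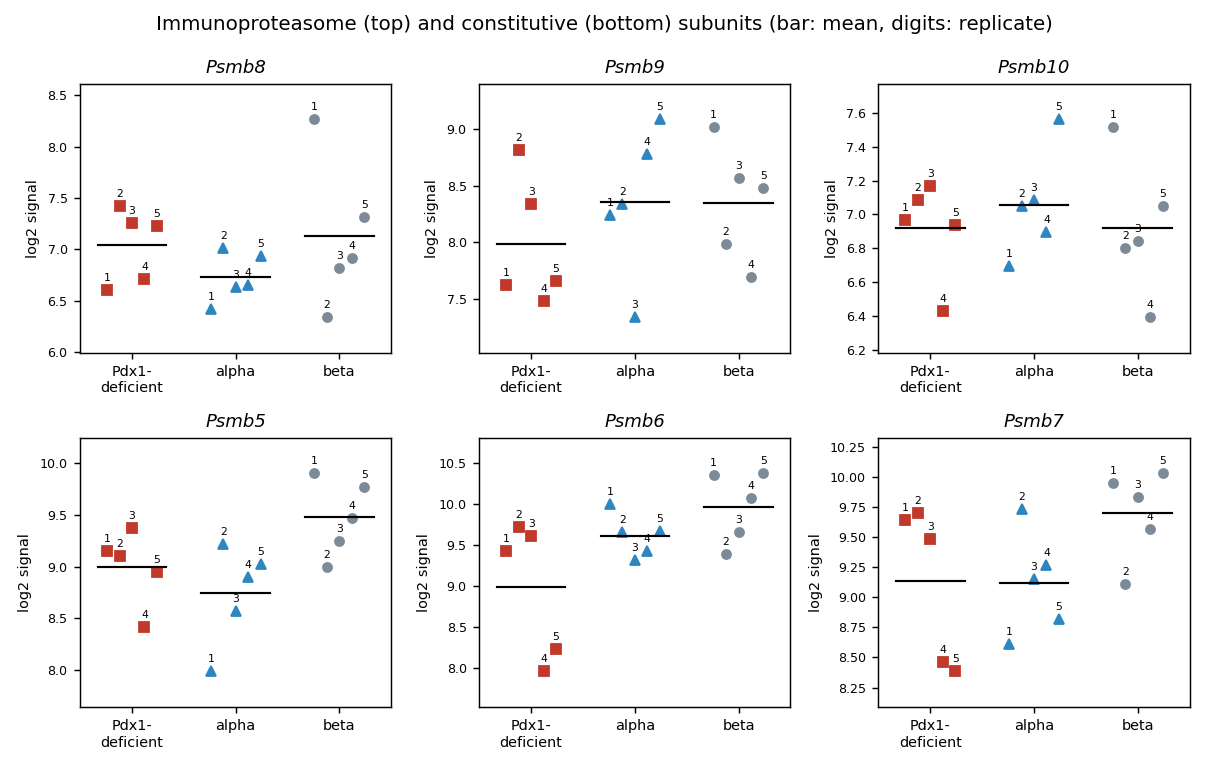
Log2 signal on each array of the immunoproteasome subunits Psmb8, Psmb9 and Psmb10 (top) and of the standard subunits they replace, Psmb5, Psmb6 and Psmb7 (bottom); digits are arrays by replicate number and bars are means of 5 arrays. Beta replicate 1 tops its group in all 3 upper panels, and Pdx1-deficient replicates 4 and 5 sit lowest for Psmb6 and Psmb7.

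The peptide transporter and its partner gave no called difference. Tap1 and Tap2 form the pump that moves peptides into the endoplasmic reticulum. They differed between Pdx1-deficient and beta cells by 0.03 (95% interval -0.24 to 0.29) and 0.02. Tapbp (tapasin) holds class I at that pump, and it averaged 7.52 ± 0.27 in Pdx1-deficient, 7.59 ± 0.17 in alpha and 7.88 ± 0.28 in beta cells (SD, n = 5 each). The Tapbp difference was -0.37 (-0.68 to -0.05, limma adjusted p = 0.18) in Pdx1-deficient cells and -0.29 in alpha cells. Beta replicate 1 was the highest beta array for 6 of 6 immunoproteasome and peptide-loading genes, with 6.43 for Tap1, 7.02 for Tap2 and 8.36 for Tapbp. It was the highest beta array for 12 of 30 members (40%), against 23.7% of all genes.

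B2m, the light chain that every class I molecule needs to reach the cell surface, had the largest difference of the set. It read 8.64, 8.89, 7.98, 8.01 and 7.32 in Pdx1-deficient replicates 1 to 5, 9.04, 8.31, 9.04, 8.92 and 9.02 in alpha replicates and 9.12, 8.79, 9.33, 8.79 and 9.73 in beta replicates. Pdx1-deficient replicates 1, 3, 4 and 5 lay below every beta array, while replicate 2 lay above the lowest beta arrays, so the groups overlapped. B2m averaged 8.17 ± 0.62 in Pdx1-deficient, 8.87 ± 0.31 in alpha and 9.15 ± 0.40 in beta cells (SD, n = 5 each). The difference from beta cells was -0.98 (95% interval -1.55 to -0.42), 1.98-fold lower, with limma adjusted p = 0.077. In alpha cells it was -0.28 (-0.85 to 0.28, limma adjusted p = 0.558). Between Pdx1-deficient and alpha cells it was -0.70 (-1.27 to -0.13, limma adjusted p = 0.693). The Pdx1-deficient difference from beta cells was -1.08 with limma adjusted p = 0.048 when array medians were subtracted. With the array labelled Pdx1-deficient replicate 1 left out it was -1.10 (limma adjusted p = 0.0497). It was -0.65 with limma adjusted p = 0.469 without Pdx1-deficient replicates 4 and 5.

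The classical class I heavy chains H2-K1 and H2-D1, which present peptides to CD8 T cells, could not be read apart, since their 2 clusters each carry both symbols. On the first cluster, Pdx1-deficient arrays read 8.72 to 9.07, alpha arrays 8.46 to 9.07 and beta arrays 9.09 to 9.88. Both other groups lay just below all beta arrays there. Among genes read singly, 5.96% separated Pdx1-deficient from beta arrays and 6.34% alpha from beta arrays, in either direction. This cluster is not in the counts of separated members above, which cover the 30 genes read singly. On the second cluster, Pdx1-deficient arrays read 8.12 to 9.01, alpha arrays 8.21 to 8.70 and beta arrays 8.14 to 9.43, so that all groups overlapped. B6 and BALB/C mice differ in H-2 haplotype, and the part of haplotype in these signals was not tested. The cluster shared by H2-T23, a nonclassical class I gene, read 6.69 to 6.83 in Pdx1-deficient, 6.37 to 7.18 in alpha and 6.35 to 7.29 in beta cells. That of Isg15, a ubiquitin-like protein attached to other proteins, read 5.54 to 6.25 in Pdx1-deficient, 5.78 to 6.63 in alpha and 5.43 to 6.03 in beta cells. Gbp2 shares a cluster with Gbp2b, at 4.42 to 4.87 in Pdx1-deficient, 4.46 to 4.62 in alpha and 4.25 to 4.48 in beta cells. These clusters were in no test.

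**Figure D4:**
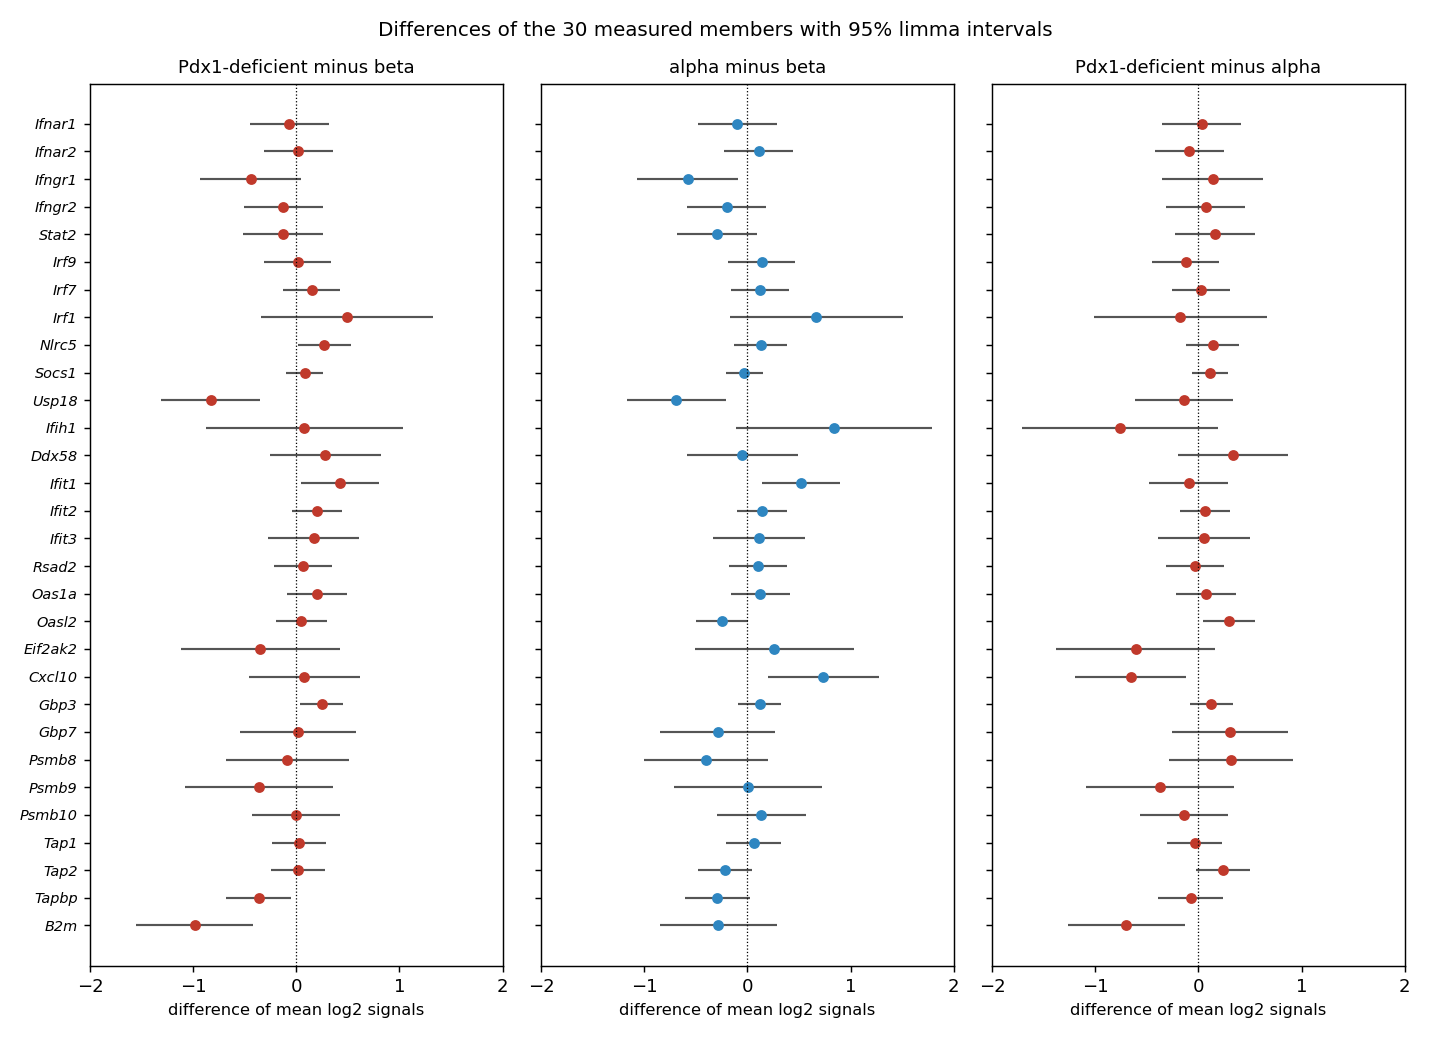
Difference of group means of log2 signal for the 30 measured genes, with 95% intervals from limma, in 3 panels (Pdx1-deficient minus beta, alpha minus beta, Pdx1-deficient minus alpha). Most intervals span 0, and B2m and Usp18 lie farthest below 0 in the first panel.

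The intervals describe the precision of each difference, gene by gene and without adjustment for the number of genes. Those of Ifit2 and Gbp3 were narrow, but both genes lay below the 25th percentile on every array, where the distance from background was not tested. In Pdx1-deficient against beta cells, 24 of 30 intervals lay within 1 log2 unit of 0 on both sides, in alpha against beta cells 23 and in Pdx1-deficient against alpha cells 24. A change of 2-fold or more was inside the interval for the remaining genes, B2m, Usp18, Irf1, Ifih1, Eif2ak2 and Psmb9 in Pdx1-deficient against beta cells. Among members with a promoter window, the median difference in Pdx1-deficient against beta cells was 0.08 over the 13 with ISRE letters, 10 of them positive, and 0.00 over the 14 without, 7 of them positive. The differences ran from -0.98 to 0.42 with a match and from -0.44 to 0.49 without. In alpha against beta cells the medians were 0.11 and 0.03, with 8 of 13 and 8 of 14 positive. These are descriptions without a test.

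Pathway genes outside the set gave few calls, all lower than in beta cells. Of 55 further interferon-stimulated genes that could be read, 1 was called lower and 0 higher in Pdx1-deficient cells, and 2 lower and 0 higher in alpha cells. The shares of all genes called lower were 0.928% and 3.15%. At unadjusted p under 0.05 there were 8 and 10 of the 55, beside 21.8% and 20.7% of all genes. The median differences over the 55 were 0.08 and 0.05, beside 0.06 and 0.04 over all genes. The gene called in both was Isg20, an exonuclease that degrades single-stranded RNA. Isg20 read 8.41, 8.07, 8.52, 7.72 and 7.05 in Pdx1-deficient replicates 1 to 5, 8.13, 8.48, 8.29, 8.50 and 7.21 in alpha replicates and 9.32, 9.06, 9.26, 9.49 and 9.68 in beta replicates. Neither group overlapped the beta arrays. The Isg20 difference from beta cells was -1.41 (SE 0.28) in Pdx1-deficient and -1.24 (SE 0.28) in alpha cells, with limma adjusted p = 0.0322 and 0.0237. The call in Pdx1-deficient cells was lost without any 1 of beta replicates 1, 3, 4 and 5 or Pdx1-deficient replicates 2, 4 and 5 (limma adjusted p = 0.0559 to 0.0869). That in alpha cells was lost without beta replicate 1, 4 or 5 or alpha replicate 1 (0.0505 to 0.0583). In alpha cells Trim25, a ubiquitin ligase that activates RIG-I, was called too. It read 8.93, 8.30, 8.52, 8.82 and 8.56 in Pdx1-deficient replicates 1 to 5, 8.54, 8.47, 8.10, 8.39 and 8.07 in alpha replicates and 9.09, 8.82, 8.76, 8.63 and 9.12 in beta replicates. All alpha arrays lay below all beta arrays, with a difference of -0.57 (SE 0.14, limma adjusted p = 0.0361), a call lost without beta replicate 1, 2, 3 or 5 or alpha replicate 3, 4 or 5 (limma adjusted p = 0.0515 to 0.0946).

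Among 13 other class I and loading genes that could be read, Calr was called lower in both groups and H2-M3 in alpha cells, and 0 were higher. Over all genes, 0.928% were called lower in Pdx1-deficient and 3.15% in alpha cells. The median difference of the 13 was -0.33 in Pdx1-deficient and -0.27 in alpha cells, beside 0.06 and 0.04 over all genes. Of the 13, 10 and 11 were below 0, beside 7815 and 8326 of all 19938 genes. At unadjusted p under 0.05 there were 7 and 6 of the 13, beside 21.8% and 20.7% of all genes. Calr (calreticulin), a chaperone of the endoplasmic reticulum that folds many glycoproteins and sits in the loading complex, read 10.68, 10.51, 10.30, 10.02 and 9.98 in Pdx1-deficient replicates 1 to 5, 10.43, 10.11, 10.48, 10.36 and 10.11 in alpha replicates and 10.81, 10.92, 10.91, 11.02 and 11.19 in beta replicates. No Pdx1-deficient or alpha array reached the lowest beta array. The difference was -0.67 (SE 0.14) in each, with limma adjusted p = 0.0339 in Pdx1-deficient and 0.0158 in alpha cells. Leaving out any 1 of the same 7 arrays as for Isg20 ended the Calr call in Pdx1-deficient cells (limma adjusted p = 0.0568 to 0.0898), and no single array left out ended that in alpha cells. H2-M3, a nonclassical class I gene that presents formylated peptides, read 7.25, 7.20, 7.55, 7.40 and 7.24 in Pdx1-deficient replicates 1 to 5, 6.96, 7.67, 6.44, 6.62 and 6.57 in alpha replicates and 8.20, 7.83, 7.26, 7.36 and 8.09 in beta replicates. In all, 4 alpha arrays lay below all beta arrays, and alpha replicate 2 lay among them. The alpha difference was -0.90 (SE 0.23, limma adjusted p = 0.0385), and the call was lost without beta replicate 1, 2 or 5, alpha replicate 1, 3, 4 or 5 or Pdx1-deficient replicate 2 (limma adjusted p = 0.0508 to 0.103). Canx and Pdia3, which work with Calr in folding, differed by -0.35 and -0.33 in Pdx1-deficient cells without passing.

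The remaining pathway lists gave 0 calls in limma in every comparison. Of the 15 interferon genes themselves that could be read, all 15 had a positive difference between Pdx1-deficient and beta cells, with a median of 0.18, beside 12123 of all 19938 genes positive and a median of 0.06. In alpha against beta cells 13 of the 15 were positive, with a median of 0.11. Many of the 15 are close Ifna paralogs, and how far they share probes was not tested. Marker lists differed in this comparison of Pdx1-deficient with beta cells. Positive were 10 of 10 stromal markers (median 0.19), 14 of 16 leukocyte (0.13), 9 of 10 endothelial (0.08) and 8 of 8 alpha-cell markers (0.20). Of acinar markers 4 of 8 were positive (median -0.0006), of duct markers 3 of 5 (0.008) and of beta-cell markers 2 of 9 (-1.0). At unadjusted p, 4 of the 15 were under 0.05, beside 21.8% of all genes. Ifnab and Ifna14, those with the smallest p, differed by 0.36 and 0.30, with limma adjusted p = 0.113 and 0.114. Signals of the 15 ranged widely, from a Pdx1-deficient mean of 3.14 for Ifna11 to one of 7.54 for Ifna5. Ifnb1, Ifna4, Ifna11 and Ifna13 lay below the 25th percentile on every array, and that percentile was itself 4.67 to 4.80 in Pdx1-deficient, 4.66 to 4.76 in alpha and 4.55 to 4.66 in beta arrays. The list mean was highest on Pdx1-deficient replicates 4 and 5, at 5.81 and 5.90. Of 19 Janus kinase, STAT and nucleic acid sensing genes, Ptpn1, a phosphatase that acts on Janus kinases, differed by -0.57 in Pdx1-deficient and -0.76 in alpha cells, with limma adjusted p = 0.174 and 0.0767. Myd88, an adaptor of Toll-like receptors, differed by -0.74 in both. At unadjusted p, 2 and 3 of the 19 were under 0.05, beside 21.8% and 20.7% of all genes. Of 6 MHC class II genes, which mark antigen-presenting leukocytes, 0 were under 0.05 even at unadjusted p. Between Pdx1-deficient and beta cells 4 of the 6 were positive and 2 negative, from -0.19 to 0.19, with a median of 0.11. H2-Aa differed by 0.19 and Cd74 by 0.14.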

How the data were processed

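RNA of 15 islet-cell samples was labelled from 500 ng of total RNA per reaction and hybridised to 1-colour arrays. The authors deposited 1 signal per transcript cluster and array, read here as log2. Affymetrix Expression Console was used, per the submitters' processing notes. Its version, the genome build, the log base and the steps from scan to signal are not stated by the labels, so folds hold if the base is 2. Correlations between arrays ran from 0.907 to 0.979, and no 2 arrays were identical.

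Of 35556 clusters, 21789 carried 1 gene symbol, 1621 several and 12146 none. Gene IDs of 21698 were matched to RefSeq (GRCm38.p6) for names, and 0 symbols changed. Each of 19938 genes was read from its brightest single-symbol cluster (999 had more than 1). In R 4.3.3, limma 3.58.1 fitted the 3 group means over all 15 arrays (lmFit, then eBayes), with Benjamini-Hochberg adjustment over all genes and a threshold of 0.05. The fit was also run on simulated data with independent normal errors for each gene and no effects of whole arrays. That run therefore cannot show how the fit deals with arrays that stand apart, as some here do. For arrays, their number, 5 per group, limits the precision. Tables and figures were made in Python 3.11.15 with pandas 2.3.3 and matplotlib 3.10.9.

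The members and all gene lists were chosen with earlier results of these data known. Values by array are given for members past the threshold, for members whose arrays do not overlap in a comparison and for the 2 largest differences each way in each comparison, and Psmb9, Psmb10 and Psmb6 were added to these with their values seen. From other lists, genes past the threshold are named, or up to 2 with the smallest p. Canx, Pdia3, Psmb5 and Psmb7 lie outside that rule and were named after their values were seen. Gm and Rik genes were skipped. Alternatives were array medians subtracted, quantile normalization, removal of dim clusters, trend and robust moderation, array weights, only the 2 groups compared, the replicate number as a block, the mean of a gene's clusters, and arrays left out. Leaving out Pdx1-deficient replicates 4 and 5 together was chosen after seeing the data. The other pair left out together are the 2 arrays whose identity markers stood apart in these same data. Leaving out that pair is therefore not independent of the data either.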

Additional observations from a re-analysis of the deposited data

Results flagged for a closer look

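Of the 102 groups of 5 arrays examined over 34 genes, 10 held an array that stood apart from the other 4 by Dixon's criterion, 9 of them among the 90 groups of members. Chance alone flags about 1 in 20 groups. Ifngr2 read 7.04 on Pdx1-deficient replicate 3, with 6.72 to 6.80 on the other 4. Stat2 read 6.95 on Pdx1-deficient replicate 4, with 6.23 to 6.43 on the others, and Eif2ak2 read 5.39 on the same array, with 6.69 to 7.20 on the others. Rsad2 read 5.17 on the array labelled Pdx1-deficient replicate 1, with 4.79 to 4.89 on the others.

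In alpha cells, replicate 4 stood apart for Irf9, at 6.51 against 6.02 to 6.06, and for Irf1, at 9.09 against 6.69 to 7.31. Gbp3 read 4.46 on alpha replicate 3, where the others read 4.28 to 4.32. B2m read 8.31 on alpha replicate 2, where the others read 8.92 to 9.04. Isg20, outside the set, read 7.21 on alpha replicate 5, the array with acinar markers at 11.42, and 8.13 to 8.50 on the others. Among beta cells, Usp18 read 7.15 on replicate 2 and 7.44 to 7.53 on the others.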

How the results depend on the processing

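Counts of called members moved with few choices. In Pdx1-deficient against beta cells 2 members passed, Usp18 and B2m, when array medians were subtracted, when Pdx1-deficient 1 and alpha 2 were left out together, and without the array labelled Pdx1-deficient replicate 1 (0 to 2 over single arrays left out). In alpha against beta cells 1 passed, Usp18, with the same pair left out and without alpha replicate 2. The range was 0 to 1 over single arrays left out. The arrays of this pair stood apart from their groups, towards the beta arrays, in some identity markers of these same data. Passes gained by leaving out these arrays therefore rest on a choice that is not independent of the data. At unadjusted p the counts were 6, 4 and 3, the last in Pdx1-deficient against alpha cells, where single arrays left out gave 0. The median member difference in Pdx1-deficient against beta cells was -0.0761 with medians subtracted, which moved the median of all genes by about as much, to -0.04 where it had been 0.06, and -0.01 to 0.09 with single arrays left out. In alpha against beta cells it was -0.0056 with medians subtracted, -0.0031 after quantile normalization, -0.0291 with dim clusters removed and 0.02 to 0.12 with single arrays left out. It ranged from -0.03 to 0.04 in Pdx1-deficient against alpha cells.

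Signs turned for small differences. In Pdx1-deficient against beta cells, Ifih1 was -0.0224 with medians subtracted, -0.0439 with array weights, -0.0131 without the pair and -0.20 to 0.31 with single arrays left out. Cxcl10 was -0.0213 with medians subtracted and -0.0435 after quantile normalization. Psmb8 was 0.13 with array weights, 0.023 without the pair and -0.28 to 0.20 without single arrays. In alpha against beta cells, Ddx58 ran from -0.19 to 0.13 without single arrays. In Pdx1-deficient against alpha cells, without single arrays, Ifngr1 ran from -0.0259 to 0.30, Irf1 from -0.36 to 0.25 and Usp18 from -0.31 to 0.0392. Usp18 was 0.0111 with array weights and 0.0822 without Pdx1-deficient replicates 4 and 5, where Ifit1 was 0.0538. The causes were not tested.

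Deviations of same-numbered arrays correlated above 0.1 in 5 of 15 pairs (r from -0.17 to 0.22). The median r was 0.04 for these pairs and -0.007 for pairs with different numbers. As this fell short of every pair, the numbers were not taken to pair the arrays. Such a rule cannot exclude that some arrays were paired. With the replicate block, 0 members were called in each comparison, and genes called numbered 8 in Pdx1-deficient against beta cells and 633 in alpha against beta cells, against 217 and 806 without it. Isg20 and Calr in Pdx1-deficient cells then had limma adjusted p = 0.0595 and 0.0751, and H2-M3 in alpha cells 0.0537. Calls outside the set were lost in some settings. Over 25 alternatives, Isg20 lost its call in Pdx1-deficient cells in 10 (adjusted p 0.017 to 0.244) and Calr in 11 (0.00893 to 0.262), and in alpha cells Isg20 in 4, Trim25 in 9, H2-M3 in 11 and Calr in 0. All genes called in Pdx1-deficient against beta cells numbered 615 with medians subtracted, 29 after quantile normalization, 403 without dim clusters, 121 with trend and robust moderation, 89 with only the 2 groups, 626 without the pair and 2 without Pdx1-deficient 4 and 5. They numbered 4, 69, 3 and 4 without beta replicates 1, 3, 4 and 5, and 548, 21, 1 and 0 without Pdx1-deficient replicates 1, 2, 4 and 5. In alpha against beta cells they numbered 1316 with array weights, 1425 without the pair, 1430 without alpha 2 and 328 to 527 without alpha 1, 3, 4 or 5 or beta 1, 3, 4 or 5. In Pdx1-deficient against alpha cells they numbered 177 without the pair and 145 without alpha 2. The number of arrays, 5 a group, limits precision, and detection calls were not used here.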

Other observations

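Outside the naming rule and chosen after their values were seen, 3 further interferon-stimulated genes had large differences without a call. Parp12, of the poly(ADP-ribose) polymerase family, averaged 7.25 ± 0.34 in Pdx1-deficient, 7.12 ± 0.47 in alpha and 7.77 ± 0.15 in beta cells (SD, n = 5 each). All arrays of both other groups lay below all beta arrays for Parp12 (limma adjusted p = 0.167 in Pdx1-deficient and 0.0849 in alpha cells). Of the 55 further interferon-stimulated genes, 4 separated from beta arrays in Pdx1-deficient and 5 in alpha cells (5.96% and 6.34% of all genes). In Pdx1-deficient cells Isg20 and Parp12 lay lower, and Dhx58 (difference 0.34, limma adjusted p = 0.151) and Zbp1 (0.30, 0.121) higher. In alpha cells Isg20, Trim25 and Parp12 lay lower, and Dhx58 and Mx1 higher. Tor3a, an ATPase of the endoplasmic reticulum, averaged 6.84 ± 0.52 in Pdx1-deficient, 6.76 ± 0.40 in alpha and 7.56 ± 0.36 in beta cells (SD, n = 5 each), with overlap. Samd9l averaged 8.21 ± 0.60 in Pdx1-deficient, 6.72 ± 1.71 in alpha and 6.74 ± 1.37 in beta cells, so its difference of 1.47 from beta cells lay within a wide spread (limma adjusted p = 0.258).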
